A study of Mus musculus with 4 samples.

Results

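AP-1 is a family of basic leucine zipper (bZIP) transcription factors, described here through 9 of its genes in mouse neutrophils given amyloid-beta 40 (Aβ40). The genes are Fos, Fosb and Fosl2 of the Fos family, Jun, Junb and Jund of the Jun family, and Atf3, Batf and Maff. They were taken by symbol from a deposited table of 54532 genes, each symbol matched 1 row, and all 9 were among the 13479 genes that passed a filter on low counts and were tested. Aβ40 is an amyloid peptide released from its precursor protein App by secretases, and the treated cells were neutrophils from the bone marrow of wild-type (WT) mice kept with Aβ40 at 20 µg/ml for 4 h. The control cells were WT bone marrow neutrophils given DMSO, a solvent. Each group held 2 libraries, called Aβ40 1 and 2 and DMSO 1 and 2. The labels state no strain, sex or age and do not say whether replicates are different mice or cultures, so the p-values reflect a spread among samples that may be purely technical. The study asked how Aβ40 leads neutrophils to form extracellular traps, the chromatin webs that these cells release.

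AP-1 proteins bind DNA in pairs joined through their leucine zippers. Fos proteins need a Jun partner, whereas Jun proteins also pair among themselves, and the pairs bind the sequence called the TPA response element and, with ATF partners, the cAMP response element. Fos, Jun, Junb, Fosb and Atf3 are immediate early genes: MAP kinases switch them on within minutes of a stimulus and their transcripts are short-lived. In neutrophils and other myeloid cells AP-1 acts beside NF-kB on genes of cytokines and proteases.

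Total counts lay between 17684621 and 19163503 in the Aβ40 libraries and between 17212264 and 19524125 in the DMSO libraries. Spearman correlation over genes was 0.987 within the Aβ40 pair and 0.978 within the DMSO pair. Of the pairs between groups only DMSO 1 with Aβ40 2 is given, at 0.982, so likeness within and between groups is not compared. All 12 neutrophil markers examined were detected, and they summed to 140276 and 133259 CPM (read counts scaled to library size by TMM) in Aβ40 1 and 2, against 135965 and 95718 CPM in DMSO 1 and 2. S100a9, S100a8 and Ngp made up most of each sum. Of the 12 log2 fold changes of Aβ40 over DMSO, 8 lay above 0 and 4 below. Markers of other marrow cells were present as well, and a gene is called here at a Benjamini-Hochberg adjusted p under 0.05 in edgeR's quasi-likelihood test, as were 17 of all genes (0.126%), all higher. The 12 B cell markers summed to 554 and 578 CPM with Aβ40 and to 188 and 184 CPM with DMSO, and 6 were called higher. The 10 eosinophil markers summed to 3684 and 3742 CPM with Aβ40 and to 1687 and 1405 CPM with DMSO, with 1 called higher. Of 16 T and NK cell markers 15 were tested and 1 was called higher, with sums of 136 and 150 CPM with Aβ40 and of 84.8 and 81.2 CPM with DMSO. DESeq2, which called 0.432% of all genes higher, called 11 of the B cell, 8 of the eosinophil and 1 of the T and NK cell markers higher. Limma-voom called 7, 3 and 1 of them, out of 25 genes that it called higher in all. EdgeR called 0 of the 12 neutrophil, 12 monocyte and macrophage, 8 basophil and mast cell, and 9 tested erythroid markers. At an unadjusted edgeR p under 0.05, 1 neutrophil marker was lower (5.72% of all genes pass lower). At the same threshold 6, 5 and 2 genes of the other lists were higher (6.51% of all genes pass higher). Of the genes in these 4 lists DESeq2 called 1, the monocyte and macrophage marker C1qb, and limma-voom 0. In bulk RNA, fewer cells of a type and less RNA per cell cannot be told apart, and the part of these cells in the AP-1 values was not tested.

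None of the AP-1 genes passed the test with all 4 libraries, and the largest differences were lower levels of Fosl2 and Jund with Aβ40. By edgeR's quasi-likelihood test 0 of the 9 were called in either direction, against 0.126% of all tested genes called higher and 0% called lower. DESeq2 and limma-voom also called 0 of the 9, and 1 of the 9, Fosl2, had an unadjusted p under 0.05, against 12.2% of all genes. Log2 fold changes of Aβ40 over DMSO ran from -0.57 to 0.51, with a median of 0.03 beside 0.01 for all tested genes. The groups did not overlap for 5 of the 9 genes (55.6%), where 45.1% of all tested genes did not overlap, so that count is close to the background. Of these, 3 were higher with Aβ40 (23.2% of all genes) and 2 lower (21.9%).

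**Figure D1:**
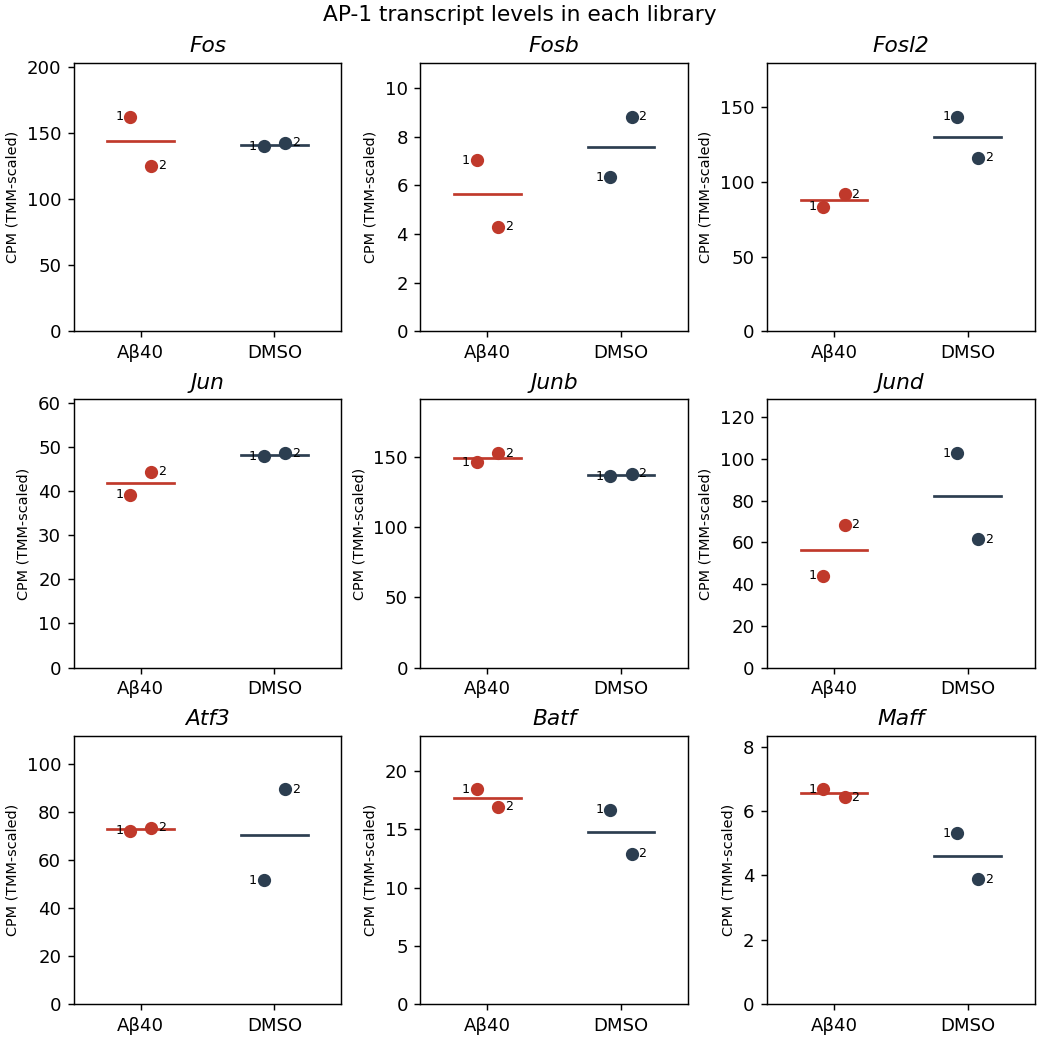
TMM-scaled CPM (vertical axis, from 0) of each AP-1 gene in the 2 Aβ40 libraries (red) and the 2 DMSO libraries (dark), with the library number beside each point and a line at the group mean. Fosl2 lies lower in both Aβ40 libraries, while the DMSO points of Jund and Atf3 lie far apart.

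Fos (ENSMUSG00000021250, mm10 chromosome 12, 85473890 to 85477273) encodes c-Fos, the founding Fos protein. It stood at 163 and 125 CPM in Aβ40 1 and 2, against 140 and 143 CPM in DMSO 1 and 2. The DMSO values lay between the Aβ40 values. The log2 fold change was 0.03 (SE 0.18), with a 95% confidence interval from -0.39 to 0.44, or folds from 0.762 to 1.36. It was at -0.18 without Aβ40 1 and at 0.18 without Aβ40 2.

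Fosb (ENSMUSG00000003545, chromosome 7, 19302696 to 19310051) encodes a close relative of c-Fos and was scarce, with 82 to 164 counts in a library. Its level was 7.02 and 4.29 CPM with Aβ40, against 6.32 and 8.82 CPM with DMSO. Aβ40 1 lay between the DMSO libraries, and the log2 fold change was -0.42 (SE 0.34), with a 95% confidence interval from -1.20 to 0.35. Leaving out 1 library gave values from -0.82 to -0.13.

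Fosl2 (ENSMUSG00000029135, chromosome 5, 32135801 to 32157842) encodes Fra-2, a Fos protein without the transactivation domain of c-Fos. It had 83.6 and 91.8 CPM in Aβ40 1 and 2, against 144 and 116 CPM in DMSO 1 and 2. Both Aβ40 libraries lay below both DMSO libraries. Means were 87.7 ± 5.84 CPM with Aβ40 and 130 ± 19.4 CPM with DMSO (SD, n = 2 each). This is a fold of 0.674, with a 95% confidence interval of 0.508 to 0.895, and -0.57 (SE 0.18) as a log2 fold change. The unadjusted p was 0.0118 and the edgeR Benjamini-Hochberg adjusted p was 0.327. Over 15 alternative settings the log2 fold change ran from -0.72 to -0.41 and the adjusted p from 0.00260 to 0.997. The smallest was reached without DMSO 2, where Fosl2 fell by 0.72 on the log2 scale and 3.28% of all genes were called lower.

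Jun (ENSMUSG00000052684, chromosome 4, 95049034 to 95052222) encodes c-Jun, the main target of the JNK kinases. It was at 39.1 and 44.3 CPM with Aβ40, against 47.9 and 48.6 CPM with DMSO, so the groups did not overlap. The log2 fold change was -0.21 (SE 0.18), with a 95% confidence interval from -0.61 to 0.19. The antisense gene Junos shares 689 bases of its span with Jun and had between 65 and 100 counts in a library. Whether counting used strand is not stated, so reads of Jun and Junos may not have been told apart.

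Junb (ENSMUSG00000052837, chromosome 8, 84974484 to 84978718) encodes a Jun protein that restrains growth of myeloid cells in mice, and it varied least of the 9 over the libraries. It had 146 and 153 CPM in Aβ40 1 and 2, against 136 and 138 CPM in DMSO 1 and 2. The Aβ40 values lay just above the DMSO values, with a log2 fold change of 0.12 (SE 0.16) and an interval (95%) of -0.24 to 0.49. Junb shares 351 bases with Prdx2, a gene on the other strand that had between 1198 and 1935 counts in a library, so reads there may have been lost or shared.

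Jund (ENSMUSG00000071076, chromosome 8, 70698949 to 70700616) encodes a Jun protein that most cells express without a stimulus. It was at 44.0 and 68.5 CPM in Aβ40 1 and 2, against 103 and 61.5 CPM in DMSO 1 and 2. DMSO 1 stood above the other 3 libraries, and Aβ40 2 exceeded DMSO 2. The log2 fold change was -0.55 (SE 0.28) with a 95% confidence interval from -1.19 to 0.10 (edgeR, Benjamini-Hochberg adjusted p = 0.472). It was -0.13 without DMSO 1 and -0.27 without Aβ40 1, while without Aβ40 2 it was -0.92. Without DMSO 2, the control group was DMSO 1 alone, the library with the highest Jund level, and the log2 fold change was -0.88. The predicted antisense gene Gm11175, inside the Jund span, is listed at 0 in all 4 libraries.

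Atf3 (ENSMUSG00000026628, chromosome 1, 191170296 to 191218039) encodes a stress-induced factor that can repress inflammatory genes. It had 72.2 and 73.6 CPM in Aβ40 1 and 2, against 51.6 and 89.5 CPM in DMSO 1 and 2. Both Aβ40 values lay between the DMSO values. The log2 fold change was 0.05 (SE 0.25), with a 95% confidence interval from -0.52 to 0.61. It turned with the DMSO library used, at -0.30 without DMSO 1 and 0.49 without DMSO 2.

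Batf (ENSMUSG00000034266, chromosome 12, 85686669 to 85709087) encodes a small bZIP protein that pairs with Jun proteins and acts with IRF4 in lymphocytes. Its levels of 18.4 and 16.9 CPM with Aβ40 lay above those of 16.7 and 12.9 CPM with DMSO, by only a little for Aβ40 2 over DMSO 1. The log2 fold change was 0.26 (SE 0.23), with a 95% confidence interval from -0.26 to 0.78, and was 0.07 without DMSO 2 and 0.45 without DMSO 1. Maff (ENSMUSG00000042622, chromosome 15, 79346621 to 79359076) encodes a small Maf protein, which lacks a transactivation domain and pairs with NRF2 and other CNC factors. It had 6.67 and 6.43 CPM with Aβ40, against 5.31 and 3.87 CPM with DMSO, from 72 to 123 counts in a library. The groups did not overlap, and the log2 fold change was 0.51 (SE 0.31), with a 95% confidence interval from -0.20 to 1.22 that reaches a fold of 2.34.

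**Figure D2:**
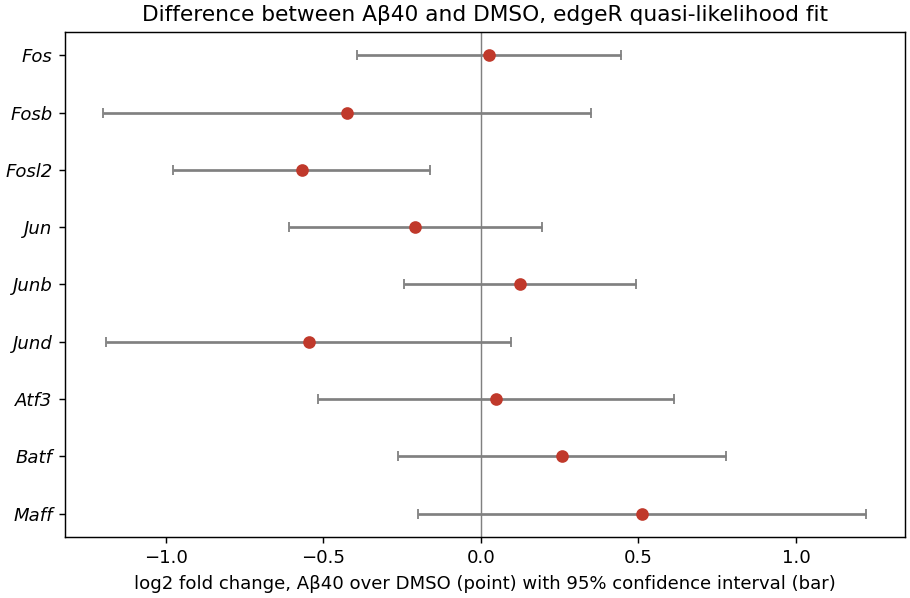
Log2 fold change of Aβ40 over DMSO (horizontal axis) for each AP-1 gene from the edgeR quasi-likelihood fit, as a point with its 95% confidence interval. The interval of Fosl2, from -0.98 to -0.16, is the only one of the 9 that does not include 0, and its adjusted p was 0.327.

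For 5 of the 9 genes (Fos, Fosb, Jund, Atf3 and Batf) replicates of 1 group differed by more than the groups did. Between the DMSO libraries, DMSO 2 over DMSO 1 gave log2 ratios of 0.80 for Atf3 and -0.74 for Jund, larger in size than any fitted difference between the groups. Within the Aβ40 pair, Aβ40 2 over Aβ40 1 gave 0.64 for Jund and -0.71 for Fosb, but 0.03 for Atf3. For Junb the replicate ratios were 0.06 within Aβ40 and 0.02 within DMSO. Jund and Atf3 thus lay on opposite sides in DMSO, with Jund high and Atf3 low in DMSO 1.

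**Figure D3:**
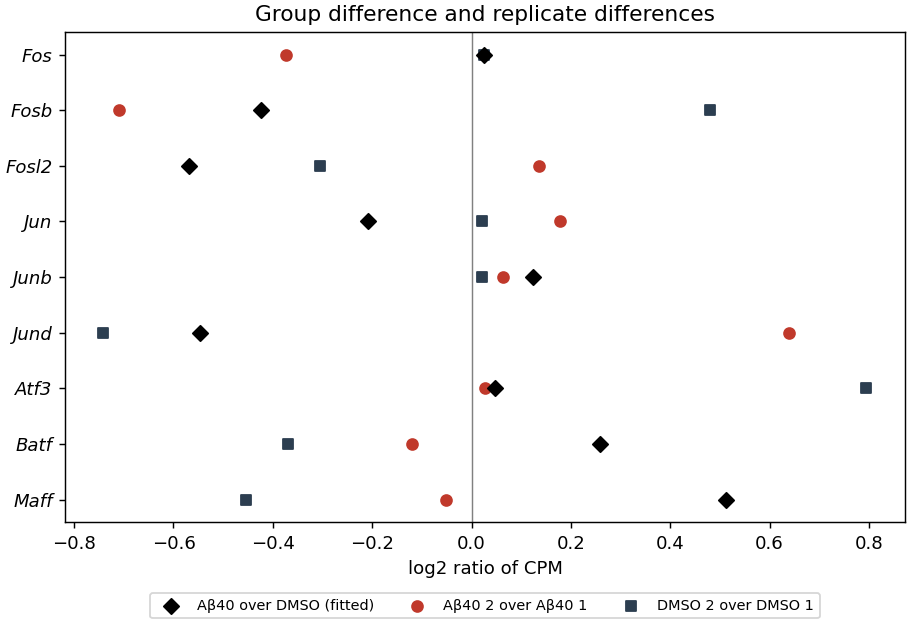
Log2 ratios (horizontal axis) for each AP-1 gene, as the fitted Aβ40 over DMSO difference (diamond), Aβ40 2 over Aβ40 1 (circle) and DMSO 2 over DMSO 1 (square). The DMSO squares of Atf3 (0.80) and Jund (-0.74) lie farther from 0 than any diamond, the largest of which is that of Fosl2 at -0.57.

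Compared per length, in the deposited FPKM (fragments scaled by gene length and library size), Junb and Fos were the most abundant of the 9 with Aβ40. Mean levels with Aβ40 were 64.1 ± 2.28 FPKM for Junb, 60.4 ± 10.8 for Fos, 33.4 ± 0.592 for Atf3, 33.3 ± 10.4 for Jund and 12.9 ± 1.18 for Jun (SD, n = 2 each). Batf at 12.4 ± 0.683, Fosl2 at 8.94 ± 0.631, Maff at 2.49 ± 0.0530 and Fosb at 0.892 ± 0.301 FPKM followed. The order with DMSO was Fos at 59.9 ± 0.711, Junb at 59.3 ± 0.575, Jund at 49.0 ± 17.4, Atf3 at 32.6 ± 12.4 and Jun at 15.1 ± 0.148 FPKM (SD, n = 2 each). Below these came Fosl2 at 13.4 ± 2.00, Batf at 10.5 ± 1.89, Maff at 1.76 ± 0.390 and Fosb at 1.21 ± 0.281 FPKM. The library ranges of Fos and Junb overlapped in both groups, as did those of Atf3 and Jund. Jun and Batf overlapped with Aβ40, and Junb and Jund with DMSO, so these neighbours were not told apart. Batf stood above Fosl2 in both Aβ40 libraries and below it in both DMSO libraries.

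The 3 Jun genes summed to 100 and 120 FPKM with Aβ40, against 135 and 112 FPKM with DMSO. The 3 Fos genes summed to 77.6 and 62.8 FPKM with Aβ40, against 75.2 and 73.8 FPKM with DMSO, so Jun transcripts outnumbered Fos transcripts in all 4 libraries. Over all 9 genes the sums were 226 and 231 FPKM with Aβ40, against 248 and 237 FPKM with DMSO. Jund held 11.5% and 17.6% of that sum in Aβ40 1 and 2, against 24.7% and 15.5% in DMSO 1 and 2. Fosl2 held 3.75% and 4.06% with Aβ40, against 5.96% and 5.04% with DMSO. The ratio of Junb to Jund was 2.41 and 1.62 in Aβ40 1 and 2, against 0.960 and 1.63 in DMSO 1 and 2, so Aβ40 2 and DMSO 2 were alike in it. Fos exceeded Fosl2 by 8.01 and 5.62 times with Aβ40, against 4.01 and 5.05 times with DMSO.

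**Figure D4:**
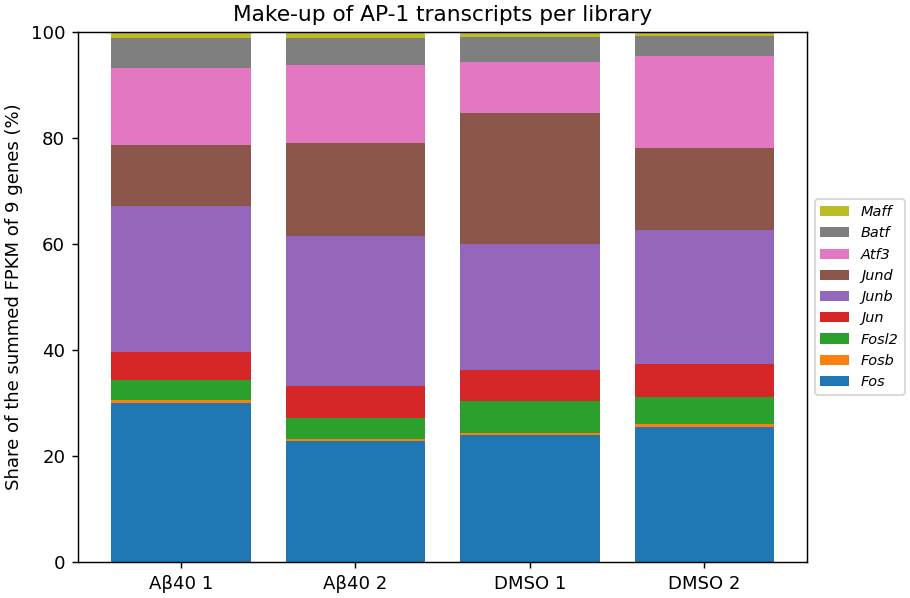
Share of the summed FPKM of the 9 AP-1 genes (vertical axis, in percent) held by each gene, as stacked bars for the 2 Aβ40 and the 2 DMSO libraries. Fos and Junb together take the largest part of each bar, and Jund ranges from 11.5% in Aβ40 1 to 24.7% in DMSO 1.

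The DNA just before the start sites of 4 AP-1 genes is shown, Fos and Jun as the family's founding genes, Fosl2 because its difference had the smallest p, and Maff because it alone holds a whole cAMP response element. Each line gives the 250 bases before a RefSeq start site (GRCm38.p6, the assembly of mm10), 5′ to 3′ on the strand of the gene. Capitals mark the motifs named after the sequences, on either strand except for TATAAA, which was sought on the strand of the gene.
Fos, chr12:85473640-85473889, plus strand: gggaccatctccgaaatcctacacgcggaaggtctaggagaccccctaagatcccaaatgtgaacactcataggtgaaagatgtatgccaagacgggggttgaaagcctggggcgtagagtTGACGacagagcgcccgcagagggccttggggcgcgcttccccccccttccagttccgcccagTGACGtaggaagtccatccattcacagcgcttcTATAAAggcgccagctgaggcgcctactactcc
Jun, chr4:95052223-95052472, minus strand: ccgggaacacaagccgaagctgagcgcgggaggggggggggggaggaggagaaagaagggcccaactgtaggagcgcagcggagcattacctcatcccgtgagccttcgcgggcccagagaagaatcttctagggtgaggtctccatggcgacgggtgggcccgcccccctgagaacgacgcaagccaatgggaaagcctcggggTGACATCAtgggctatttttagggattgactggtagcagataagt
Fosl2, chr5:32136222-32136471, plus strand: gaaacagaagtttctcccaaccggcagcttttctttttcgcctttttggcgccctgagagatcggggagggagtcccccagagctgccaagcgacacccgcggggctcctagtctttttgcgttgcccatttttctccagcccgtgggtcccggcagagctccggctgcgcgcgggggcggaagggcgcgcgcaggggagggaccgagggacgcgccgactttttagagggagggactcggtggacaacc
Maff, second of 3 start sites, chr15:79347270-79347519, plus strand: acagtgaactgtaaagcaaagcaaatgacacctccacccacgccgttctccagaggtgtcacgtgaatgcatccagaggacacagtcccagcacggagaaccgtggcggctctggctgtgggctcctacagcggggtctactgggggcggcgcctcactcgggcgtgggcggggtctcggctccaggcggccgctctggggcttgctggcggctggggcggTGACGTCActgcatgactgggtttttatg
TGACG, the core of the cAMP response element, was found in 7 of the 11 windows of the 9 genes. These belong to 6 genes (Fos, Fosb, Junb, Atf3, Batf and Maff, the last with 3 windows). It was found in 17.8% of the 32851 windows of the same length in the RefSeq table. In Fos it stands 66 to 62 and 129 to 125 bases before the start, and the letters TATAAA of the usual core promoter box 33 to 28 bases before it (7.59% of all windows). The whole element TGACGTCA, which contains TGACG on both strands, was found only in Maff among the 9 genes, 29 to 22 bases before its second start, and in 1.55% of all windows. Jun holds TGACATCA, the variant TPA response element known from its promoter, 45 to 38 bases before the start. The third start of Maff has it at the same distance, so 2 of the 11 windows hold it, against 2.93% of all windows. TGANTCA, the usual TPA response element, was in none of the 11 windows of the 9 genes, and in 6.75% of all windows. The Fosl2 window held none of these letters, which says nothing about more distant sites. The motifs were chosen after the sequences were seen, and the matches are a description. The RefSeq start of Fosl2 lies 671 bases inside the deposited gene, that of Jund 1210 bases before it and that of Atf3 34706 bases inside it, so these windows need not hold the promoter used in these cells.

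No other bZIP gene was called by edgeR's quasi-likelihood test. The deposited table marks 48 genes as bZIP factors, of which 45 were tested. Among these 0 were called, 2 were higher and 5 lower at an unadjusted p under 0.05 (6.51% of all genes pass higher and 5.72% lower), and the median log2 fold change was -0.18. DESeq2 called 2 of them higher, Bach2 and Crem, where it called 0.432% of all genes higher, and limma-voom called 0. In a list of 20 further AP-1 and related bZIP genes 19 were tested, all of them among the 45, with 0 called and a median of -0.24. Of the 19, 2 were higher and 4 lower at an unadjusted p under 0.05. They are genes already counted among the 45, where the other lower gene was Fosl2. Bach2, a repressor of B and T lymphocytes that binds with small Maf proteins, was at 25.3 and 29.0 CPM with Aβ40, against 13.1 and 12.9 CPM with DMSO, a log2 fold change of 1.07 (SE 0.21; edgeR, Benjamini-Hochberg adjusted p = 0.129). It moved with the B cell markers, whose sums are given above, and their part in it was not tested. Crem, a factor of the cAMP response with repressor forms, had 50.1 and 45.6 CPM with Aβ40, against 22.2 and 27.3 CPM with DMSO, at 0.95 (SE 0.20). Atf1, which binds the cAMP response element, was at 108 and 103 CPM with Aβ40, against 166 and 141 CPM with DMSO, at -0.54 (SE 0.17). Atf4, with the highest CPM of the list and a factor of the integrated stress response, was at 0.18 (SE 0.21).

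The kinases and factors that switch AP-1 genes on gave no call either. Of 26 tested genes 0 were called by edgeR, DESeq2 or limma-voom. At an unadjusted edgeR p under 0.05, 0 were higher and 4 lower (6.51% of all genes pass higher and 5.72% lower). Of the 26, 19 lay below 0, where 6593 of all 13479 tested genes did. The median log2 fold change was -0.19, beside 0.01 for all tested genes. Srf, the serum response factor that binds the Fos enhancer, was at 14.5 and 14.2 CPM with Aβ40, against 19.7 and 22.2 CPM with DMSO, a log2 fold change of -0.54 (SE 0.21). Mef2a, a factor of the Jun promoter, was at 88.6 and 90.0 CPM with Aβ40, against 115 and 124 CPM with DMSO, at -0.42 (SE 0.16). For both genes the groups did not overlap, as for 46.2% of the 26 genes and 45.1% of all tested genes. Map2k2, a kinase that activates ERK, was at -0.59 (SE 0.21), and Mapkapk2, a kinase under p38 with the highest CPM of the list, at -0.36 (SE 0.19). MAP kinase phosphatases and feedback genes, 12 tested of 13, had 0 calls by any of these tools and a median of -0.15. Of the 12, 0 had an unadjusted edgeR p under 0.05 (12.2% of all genes). Dusp1, the immediate early phosphatase of p38 and JNK, was at 138 and 121 CPM with Aβ40, against 137 and 147 CPM with DMSO, at -0.14 (SE 0.17). Dusp7 was at -0.53 (SE 0.33) and Spry2, an inhibitor of growth factor signalling, at -0.33 (SE 0.26), while Dusp4 averaged only 1.63 CPM with Aβ40 and 0.591 CPM with DMSO.

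Among 30 other immediate early genes edgeR and limma-voom called 0, and the median was -0.11. At an unadjusted edgeR p under 0.05, 1 was higher and 3 lower (6.51% of all genes pass higher and 5.72% lower). DESeq2 called Rgs1 higher and Rhob lower, with 0.432% of all genes called higher and 0.165% lower. Rgs1, a regulator of G protein signalling that lymphocytes also express, was at 70.4 and 54.8 CPM with Aβ40, against 29.6 and 28.6 CPM with DMSO, a log2 fold change of 1.10 (SE 0.19; edgeR, Benjamini-Hochberg adjusted p = 0.104). Rhob, a small GTPase induced by growth factors, was at 108 and 123 CPM with Aβ40, against 202 and 190 CPM with DMSO, at -0.76 (SE 0.17; edgeR, Benjamini-Hochberg adjusted p = 0.190). Klf6, a zinc finger factor, was at -0.45 (SE 0.18), and Mcl1, a survival gene with the highest CPM of the list, at 0.04 (SE 0.19). Known AP-1 targets of myeloid cells, 23 tested of 24, gave 0 calls by edgeR, DESeq2 or limma-voom and a median of -0.13. At the same unadjusted threshold, 1 was higher and 3 lower, beside the same shares of all genes. Il6, a cytokine gene, was at 52.9 and 40.5 CPM with Aβ40, against 30.2 and 21.2 CPM with DMSO, at 0.86 (SE 0.24). Mmp9, a gelatinase of neutrophil granules, was at 647 and 713 CPM with Aβ40, against 975 and 1011 CPM with DMSO, at -0.55 (SE 0.18). The growth factor gene Vegfa was at -0.42 (SE 0.17), and Cd44, an adhesion receptor with the highest CPM of the list, at -0.36 (SE 0.21).

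**Figure D5:**
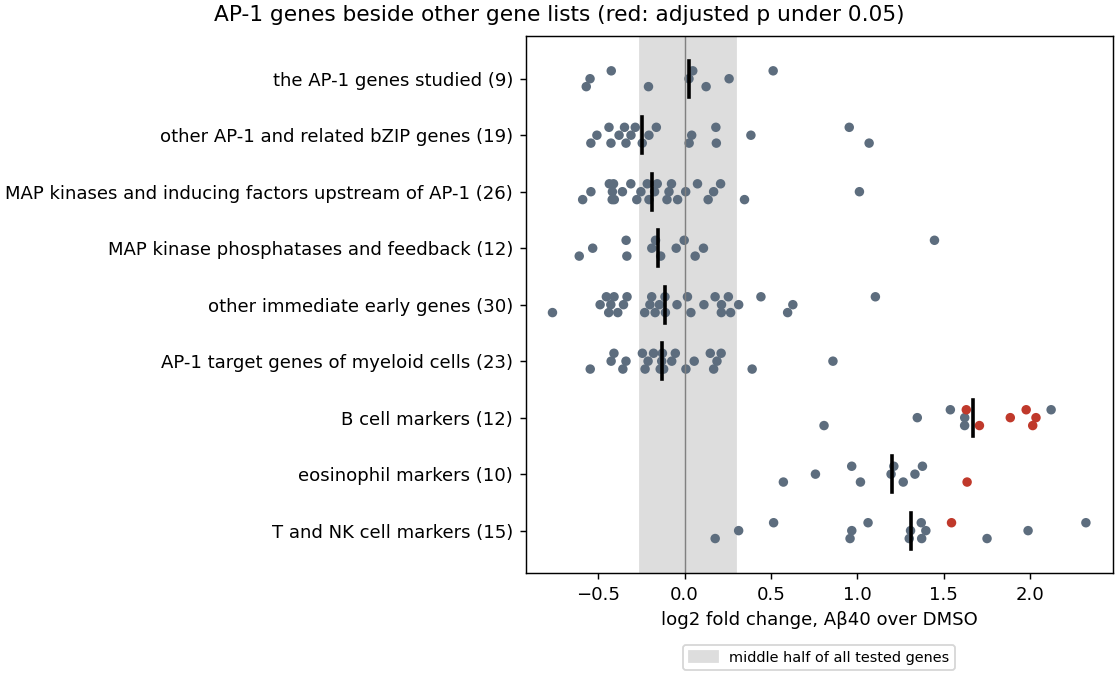
Fold changes of Aβ40 over DMSO on the log2 scale (horizontal axis) for the tested genes of the AP-1 list, the related gene lists and some marker lists. The marker lists drawn are those of B cells, eosinophils, and T and NK cells, and the other marker lists are left out. Each list has the number tested in brackets and a bar at its median. Red points have an edgeR adjusted p under 0.05, and the grey band runs from the first to the last quartile of all tested genes. The AP-1 genes hold no red point and have a median of 0.03, while the markers of lymphocytes and eosinophils lie above 0.

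Genes with a profile over the 4 libraries nearest to that of the 3 AP-1 genes with the highest CPM were sought among 8879 protein-coding genes, by the distance between centred log2 CPM. Nearest to Junb were Anapc5, Tmed2 and Rb1, at distances of 0.0266 to 0.0294. Nearest to Fos were Ube4a, Napg and Trim21, at 0.0349 to 0.0433, and nearest to Fosl2 were Dbnl at 0.0116, Frmd4a at 0.0389 and Plk1 at 0.0460. Dbnl, an actin-binding adaptor, was at 183 and 202 CPM with Aβ40, against 316 and 253 CPM with DMSO. With 4 libraries and so many candidates, these likenesses are a description only.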

How the data were processed

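RNA was measured by sequencing in 4 libraries of mouse bone marrow neutrophils, 2 given Aβ40 and 2 given DMSO, grouped by the treatment in the labels. HISAT2 2.0.5, featureCounts 1.5.0-p3 and the build mm10 appear in the submitters' processing notes, with no annotation release or strand setting. The authors deposited raw read counts per gene and FPKM per gene. The deposited FPKM equal counts over gene length and an effective library size of 17389276 to 19335464 reads, as checked on the values.

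The counts were fitted with edgeR 4.0.16 in R 4.3.3: filterByExpr, TMM scaling and the quasi-likelihood test (intercept and group, 2-sided, 2 residual and 6.88 prior degrees of freedom), with Benjamini-Hochberg adjustment over all 13479 genes and calls at an adjusted p under 0.05. The fit was tested on simulated data. CPM are TMM-scaled, and 1 count was 0.0523 to 0.0585 CPM, which covers counting error only. Intervals are 95% and from the same fit. Start site sequences are from RefSeq (GRCm38.p6), and all 9 genes matched.

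The 9 genes and the 12 other lists were chosen with earlier results of these data known. All 9 genes were named. From other lists the rule named up to 4 called genes per direction, or the 3 of smallest p and the 1 of highest CPM. For the lists of marker genes, counts and sums are given, and few genes are named. Alternatives were other scalings, DESeq2 1.42.0, limma-voom (limma 3.58.1), filters, a fit on protein-coding genes, a block on the replicate number, FPKM with limma and leaving out each library.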

Additional observations from a re-analysis of the deposited data

How the results depend on the processing

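Each group had 2 libraries, which limits the precision, and the 95% confidence intervals given for 8 of the 9 genes, all but Fosl2, include 0. The 9 AP-1 genes gave 0 calls higher under all alternatives, and 0 lower except when leaving out DMSO 2 or crossing the replicate numbers. Without DMSO 2, Fosl2 was at -0.72 and Jund at -0.88. Fits without 1 library assume that a lone library varies like the other group. On library totals Fos was at -0.030 and Atf3 at -0.027. Fos was at -0.00013 with limma on log2(FPKM + 0.1), and from -0.18 to 0.18 without 1 library. Atf3 ran from -0.30 to 0.49 without 1 library. The other 7 kept their sign under all 15 alternatives. Over all genes, where 17 were called higher and 0 lower, DESeq2 called 94 higher and 36 lower, no filter 185 and 70, limma on either FPKM scale 0 and 0, and library totals 1 lower. Without 1 library the counts ran from 0 to 805 higher and from 0 to 471 lower. The cause of these shifts was not tested.

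The labels give both groups the numbers 1 and 2 without saying that a number marks a shared animal or day. Deviations of same-numbered libraries correlated at -0.19 over genes, and with the replicate number as a block 27 genes were called higher and 0 lower, and 0 of the 9 AP-1 genes. With this replicate block Fosl2 was at -0.56 and Jund at -0.53. A crossed replicate block (number 1 with number 2), chosen after seeing the data, called 445 genes higher and 276 lower, with 0 of the 9 AP-1 genes higher and 1 lower.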
